A study of Mus musculus with 6 samples.

Results

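Collagens are the main structural proteins of connective tissue, and fibroblasts make most of them. Of the 43 gene names on the array that match the collagen pattern (Col, a type number, a, a chain number), 37 had signal well above background on 1 or more of the 6 arrays, and these 37 are the collagen genes described here, out of 17684 genes that met the same condition. Each was read by its brightest probe. By class they were 11 fibrillar collagens, 6 basement membrane collagens, 7 FACITs (collagens that sit on the surface of fibrils) and 13 others. The 6 names well above background on no array were Col6a5, Col9a3, Col13a1, Col15a1, Col19a1 and Col28a1. Of the 37, 22 were well above background on all 6 arrays, 15 on only some of them, and 4 of these 15 on 1 array.

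The cells were mouse embryonic fibroblasts, connective tissue cells grown from embryos, of strain ICR by the labels, kept in DMEM with 10% FBS. There were 3 genotypes: Per2m/m, altered in the gene of the circadian clock repressor PER2, Clk/Clk, which the series design calls mutant in Clock, the gene of a clock activator, and wild type. Cells of each genotype were either transfected with a vector expressing H-Ras and SV40T or mock treated, which gave 6 groups of 1 array each. H-Ras is a small GTPase of growth signalling with oncogenic mutant forms, and SV40T is the large tumour antigen of a polyomavirus, known to inactivate tumour suppressors. The promoter in the vector, the time after transfection, and whether the cells were pools or clones are not given in the sources used here. Neither is the nature of the Per2 and Clock alterations.

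A collagen molecule is made of 3 chains wound around each other, and many types need chains of different genes in a fixed ratio, such as Col1a1 with Col1a2 or Col4a1 with Col4a2. Fibrillar collagens form the load-bearing fibrils, basement membrane collagens form the sheets under epithelia and vessels, and FACITs link fibrils to their surroundings. In the cell, chains are hydroxylated, folded and exported, and outside it propeptides are cut off and the molecules cross-linked.

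A level is the log2 processed signal of a probe minus the log2 of the array's 75th percentile signal, so 0 is the 75th percentile. The response is the level in transfected minus that in mock cells of 1 genotype, without a test, since each group had 1 array. A gene was counted at 2-fold when both arrays differed by that much and the brighter was well above background. These counts use the measured levels. Where the dimmer array was not well above background, its level is called dim and the fold is a lower bound, "at least N-fold". Levels of different genes come from different probes and were not compared. Repeated spots of a probe differed by 0.05 to 0.06 (SD, log2), which is 0.09 for a response and covers spot noise only.

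The 6 arrays lay on 1 slide, with 53.5% to 57.3% of spots well above background on 5 of them and 49.3% on the transfected Per2m/m array. That array stood apart: its median correlation with the others across genes was 0.856, against 0.931 to 0.946 for each other array. The source name of this sample does not mention SV40, while its characteristics name the same vector as in the other genotypes. Xist and the Y-linked Ddx3y and Eif2s3y were at least 16.7-fold, 23.3-fold and 13.8-fold lower on it than on the mock Per2m/m array, and Uty was not well above background on either. Xist was not well above background on either Clk/Clk array. Every Per2m/m response below is the level on the transfected Per2m/m array minus the level on the mock Per2m/m array. Whether both Per2m/m samples came from the same culture was not tested. Of 12 fibroblast markers, 11 gave signal well above background in transfected and 12 in mock Per2m/m cells. The counts were 12 in both Clk/Clk cultures, and 11 in transfected and 12 in mock wild type cells. Such detection does not identify the cells, since 7 or 8 of 11 measured epithelial markers were also well above background on each array.

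More collagen genes stood 2-fold lower than 2-fold higher after transfection of Per2m/m and of wild type cells, and equal numbers did in Clk/Clk cells. The transfected Per2m/m culture had 18 of 37 at least 2-fold lower, where 20.6% of all genes were, and 6 were at least 2-fold higher, where 18.6% of all genes were. In Clk/Clk cells 3 were lower, against 4.2% of all genes, and 3 were higher, against 3.72%. In wild type cells 15 were lower, against 12.1% of all genes, and 2 were higher, against 7.4%. In such bulk cultures, fewer cells of a type and less RNA per cell cannot be told apart. The median collagen response was −0.81 in Per2m/m, −0.04 in Clk/Clk and −0.72 in wild type cells, where the median over all genes was 0.12, 0.01 and −0.01. The Clk/Clk median lay between −0.04 and 0.02 over the scalings and background corrections tried, so it had no fixed sign. Scaling each array to its median moved the median of all genes to 0.40 for Per2m/m and 0.30 for wild type cells, and the collagen medians stayed below 0, at −0.53 and −0.41. Among the 22 collagen genes well above background everywhere, 10 were lower and 3 higher in Per2m/m cells, where 13.7% and 18.9% of the 12868 such genes were. Of the same 22, Clk/Clk cells had 2 lower and 3 higher, against 2.12% and 1.76%, and wild type cells 11 lower and 0 higher, against 6.3% and 6.69%.

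**Figure D1:**
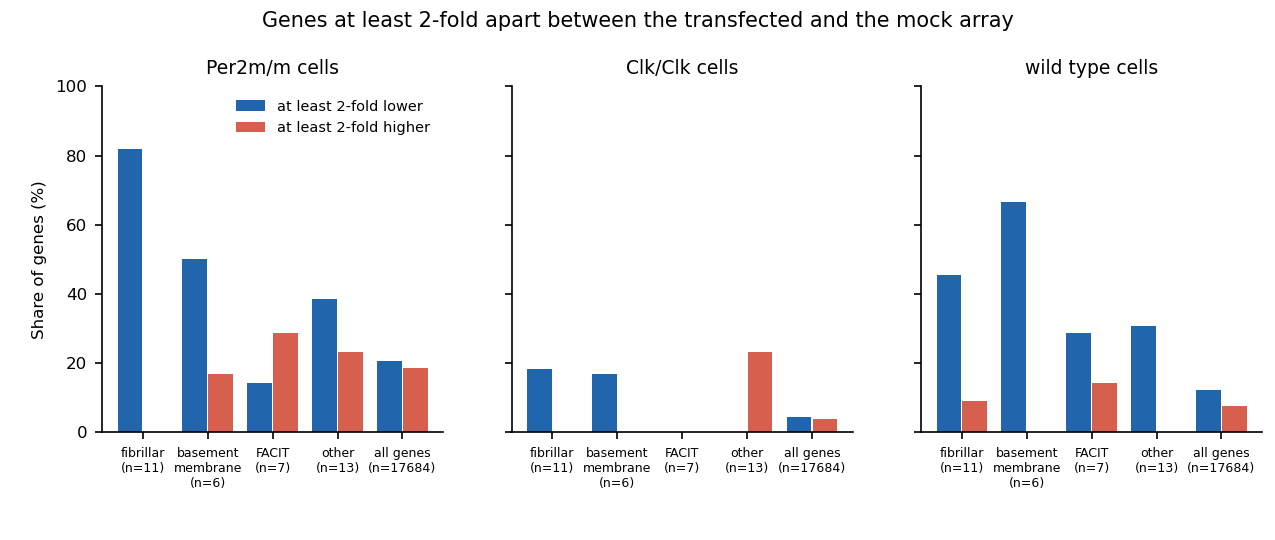
Share of genes at least 2-fold lower (blue) and at least 2-fold higher (red) on the transfected than on the mock array, for 4 collagen classes and for all 17684 genes, in each genotype. In Per2m/m cells 9 of 11 fibrillar collagens were lower, and in wild type cells 4 of 6 basement membrane collagens, while the Clk/Clk panel has few genes in either direction.

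Only 1 collagen gene, Col27a1, was at least 2-fold lower in all 3 genotypes, as were 99 of all 17684 genes. Its wild type response was 2.02-fold and fell under 2-fold with each array scaled to its median. None was higher in all 3. Lower in both Per2m/m and wild type cells were 10 of the 37, against 1227 of all genes: Col4a1, Col4a2, Col5a1, Col5a2, Col7a1, Col8a1, Col8a2, Col12a1, Col24a1 and Col27a1. The bound for Col24a1 in wild type cells was 1.69-fold, so the count there is 14 of 37 when dim levels are raised to the bound. In 10 genes no genotype showed a 2-fold response where it was measured: Col1a2, Col4a3, Col6a1, Col6a2, Col6a3, Col9a1, Col9a2, Col14a1, Col16a1 and Col25a1.

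**Figure D2:**
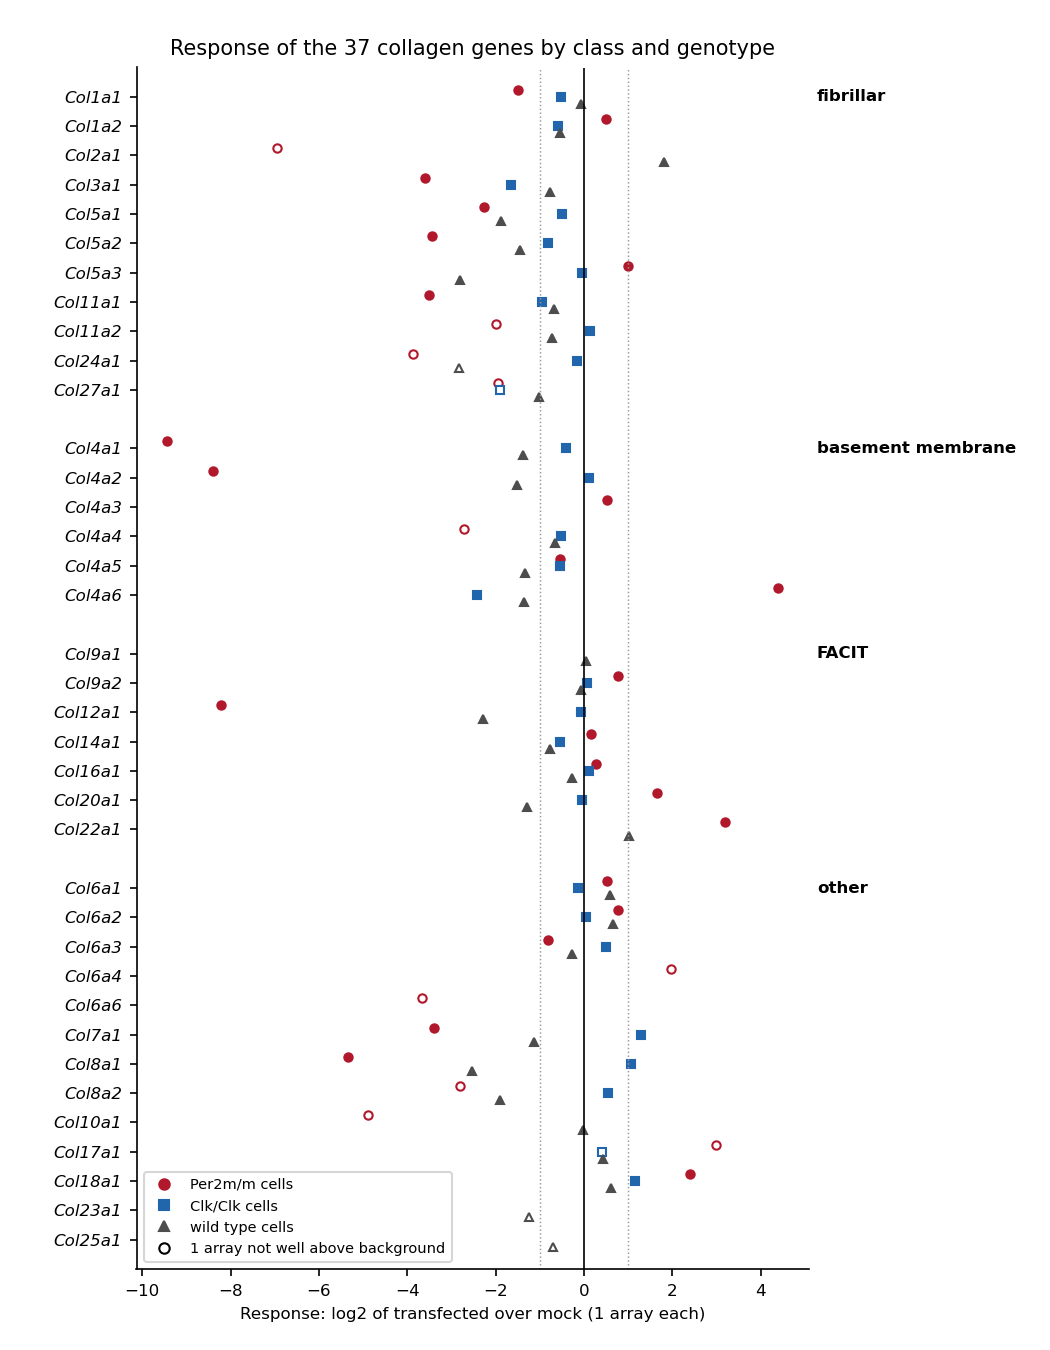
Response (log2 of transfected over mock) of each of the 37 collagen genes, by class, in Per2m/m (red circles), Clk/Clk (blue squares) and wild type cells (grey triangles). Open symbols have 1 array not well above background, pairs with both arrays below are left out, and dotted lines mark 2-fold. Red points reach −9.44 at Col4a1, while the Clk/Clk points lie between −2.42 and 1.29.

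Type I collagen, the main fibril of skin, bone and tendon, was read by Col1a1 at chromosome 11, 94813115 to 94813174 (mm9), and Col1a2 at chromosome 6, 4490619 to 4490678. Col1a1 had levels of 6.27 in transfected and 7.75 in mock Per2m/m cells, 6.62 in transfected and 7.14 in mock Clk/Clk cells, and 7.78 in transfected and 7.87 in mock wild type cells. The Col1a1 signal was 2.8-fold lower in transfected Per2m/m cells, 1.43-fold lower in Clk/Clk and 1.06-fold lower in wild type cells, and the sign in wild type cells turned under another scaling. Its partner chain Col1a2 had levels of 9.34 in transfected and 8.85 in mock Per2m/m cells, 8.33 in transfected and 8.92 in mock Clk/Clk cells, and 8.85 in transfected and 9.40 in mock wild type cells. Col1a2 spanned 1.07 over the 6 arrays, and it was 1.41-fold higher in transfected Per2m/m cells, where Col1a1 was lower. The gap between the responses of both chains was 1.98 in Per2m/m, 0.07 in Clk/Clk and 0.47 in wild type cells.

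Type III collagen, found with type I in elastic tissues, is made of Col3a1 alone, read at chromosome 1, 45405589 to 45405648. Its levels were 1.57 in transfected and 5.16 in mock Per2m/m cells, 3.20 in transfected and 4.86 in mock Clk/Clk cells, and 5.46 in transfected and 6.22 in mock wild type cells. The transfected culture was lower in each genotype, 12.1-fold lower in Per2m/m, 3.14-fold lower in Clk/Clk and 1.7-fold lower in wild type cells. Col5a2, which lies next to it on chromosome 1 and encodes a chain of the fibril-initiating type V collagen, had levels of −0.86 in transfected and 2.58 in mock Per2m/m cells, 0.43 in transfected and 1.24 in mock Clk/Clk cells, and 1.98 in transfected and 3.43 in mock wild type cells. It was 10.8-fold lower, 1.76-fold lower and 2.72-fold lower in Per2m/m, Clk/Clk and wild type cells. The responses of these neighbours differed by 0.15 in Per2m/m, 0.84 in Clk/Clk and 0.68 in wild type cells.

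The main type V chain, Col5a1, had levels of 3.90 in transfected and 6.16 in mock Per2m/m cells, 4.12 in transfected and 4.61 in mock Clk/Clk cells, and 4.98 in transfected and 6.85 in mock wild type cells. Transfected cells were 4.77-fold lower in Per2m/m, 1.4-fold lower in Clk/Clk and 3.66-fold lower in wild type cells, so both main type V chains were at least 2-fold lower in Per2m/m and wild type cells. Col5a3, a minor type V chain, had levels of 2.13 in transfected and 1.14 in mock Per2m/m cells, 0.19 in transfected and 0.24 in mock Clk/Clk cells, and 1.29 in transfected and 4.10 in mock wild type cells. Col5a3 was 1.98-fold higher in transfected Per2m/m cells and 7.02-fold lower in transfected wild type cells, and its wild type mock level stood above all 5 other arrays.

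Type XI collagen, the relative of type V in cartilage, was read by Col11a1, with levels of −3.27 in transfected and 0.24 in mock Per2m/m cells, −0.71 in transfected and 0.24 in mock Clk/Clk cells, and −0.60 in transfected and 0.06 in mock wild type cells. It was 11.4-fold lower in transfected Per2m/m cells, 1.93-fold lower in Clk/Clk and 1.59-fold lower in wild type cells, and the 5 other arrays lay between −0.71 and 0.24. Col11a2 had levels of a dim −4.59 in transfected and −2.60 in mock Per2m/m cells, −3.16 in transfected and −3.30 in mock Clk/Clk cells, and −3.00 in transfected and −2.28 in mock wild type cells. Its signal was at least 3.97-fold lower for Per2m/m cells and under 2-fold in the others, 1.1-fold higher in Clk/Clk and 1.65-fold lower in wild type cells.

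Type II collagen is the fibril of cartilage. Col2a1, at chromosome 15, 97806071 to 97806130, had levels of a dim −4.85 in transfected and 2.10 in mock Per2m/m cells, a dim −5.50 in transfected and a dim −6.69 in mock Clk/Clk cells, and 2.89 in transfected and 1.08 in mock wild type cells. Its signal exceeded background clearly in mock Per2m/m and both wild type cultures, and not in the other 3. The signal was at least 103-fold lower for transfected Per2m/m cells and 3.51-fold higher in transfected wild type cells, with no fold in Clk/Clk cells. Col10a1, the collagen of hypertrophic cartilage, was dim on the same 3 arrays, with levels of a dim −5.81 in transfected and −0.93 in mock Per2m/m cells, a dim −6.46 in transfected and a dim −6.65 in mock Clk/Clk cells, and −2.43 in transfected and −2.40 in mock wild type cells. This gene was at least 12.6-fold lower in Per2m/m and 1.02-fold lower in wild type cells, where the sign turned under another scaling. Of the 8 measured cartilage and bone cell markers, 3 were lower and 3 higher in transfected Per2m/m cells, against 20.6% and 18.6% of all genes. Clk/Clk cells had 0, against 4.2% and 3.72%, and wild type cells 1 lower and 1 higher, against 12.1% and 7.4%. Sox9, the transcription factor that drives cartilage genes, had levels of 2.68 in transfected and −1.66 in mock Per2m/m cells, −0.87 in transfected and −1.35 in mock Clk/Clk cells, and 0.91 in transfected and −1.60 in mock wild type cells. It was 20.2-fold higher in Per2m/m, 1.39-fold higher in Clk/Clk and 5.71-fold higher in wild type cells, and Comp, a cartilage matrix protein, was 2.99-fold lower in Per2m/m and 6.16-fold lower in wild type cells. Sp7, a transcription factor of bone cells, was at least 2.1-fold lower in Per2m/m and 1.97-fold higher in wild type cells, and Ibsp, a bone matrix protein, was at least 2.56-fold higher for Per2m/m cells.

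Col24a1 and Col27a1 are minor fibrillar chains. Col24a1 had levels of a dim −6.70 in transfected and −2.82 in mock Per2m/m cells, −1.15 in transfected and −0.97 in mock Clk/Clk cells, and a dim −7.55 in transfected and −4.71 in mock wild type cells. It was at least 3.41-fold lower in Per2m/m, 1.13-fold lower in Clk/Clk and at least 1.69-fold lower in wild type cells, and it was brightest on both Clk/Clk arrays. Col27a1, at chromosome 4, 62995485 to 62995544, had levels of a dim −4.75 in transfected and −2.80 in mock Per2m/m cells, a dim −4.66 in transfected and −2.76 in mock Clk/Clk cells, and −2.91 in transfected and −1.89 in mock wild type cells. Its signal was at least 3.46-fold lower in Per2m/m, at least 3.39-fold lower in Clk/Clk and 2.02-fold lower in wild type cells. Of the 11 fibrillar genes, 9 were lower and 0 higher in Per2m/m cells (median response −2.26), against 20.6% and 18.6% of all genes. In Clk/Clk cells 2 were lower and 0 higher (−0.52), against 4.2% and 3.72%, and in wild type cells 5 and 1 (−0.77), against 12.1% and 7.4%. These 3 medians kept their sign under each scaling and background correction tried.

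**Figure D3:**
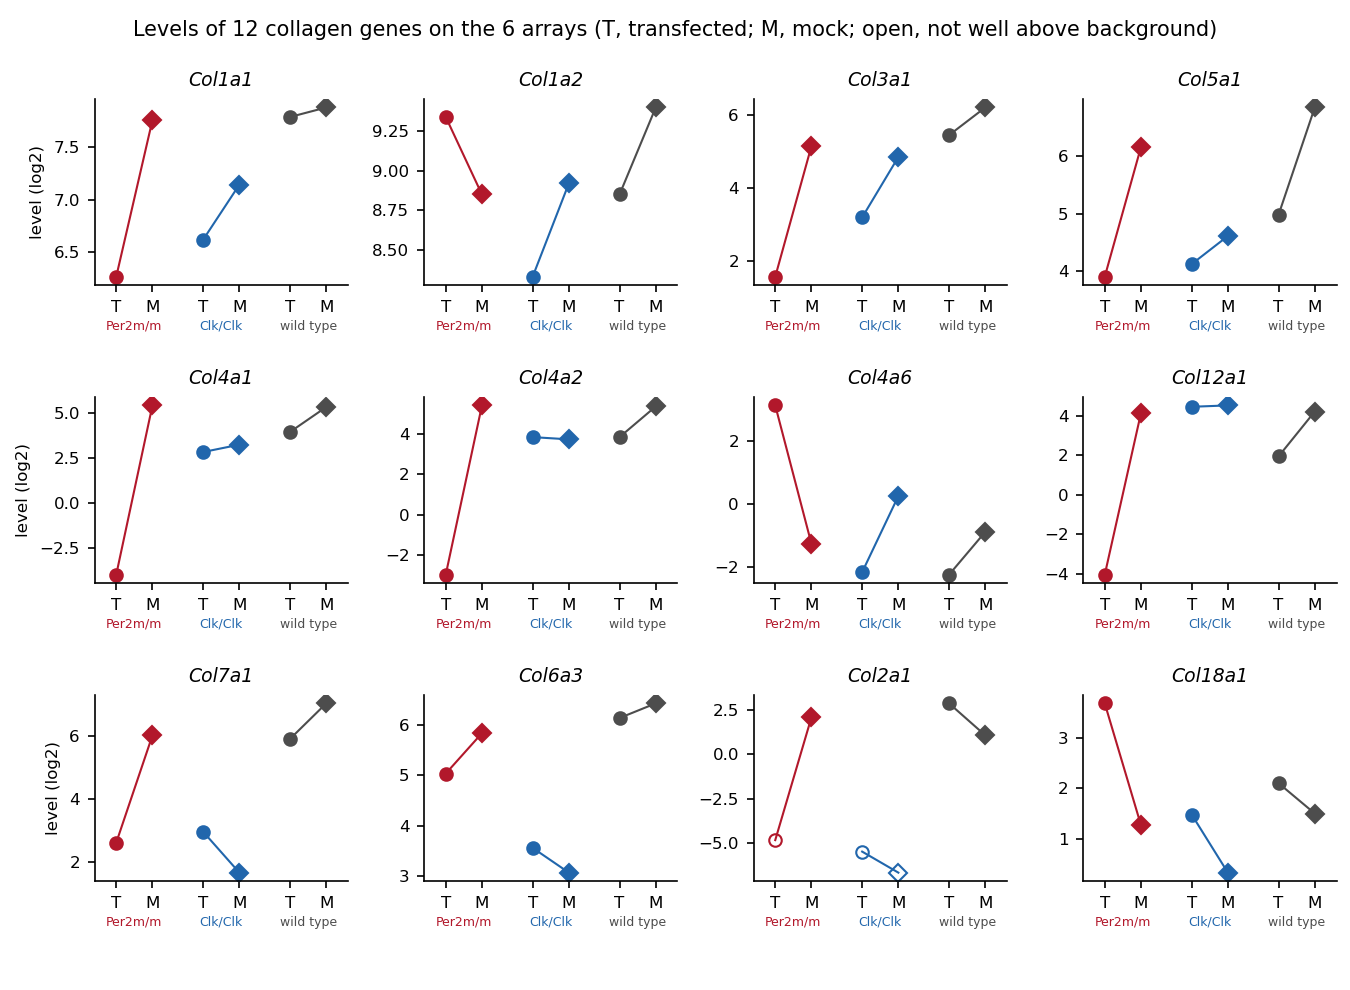
Levels of 12 collagen genes on the 6 arrays (log2, 0 is the array's 75th percentile; each panel has its own axis). Circles (T) are transfected and diamonds (M) mock cultures, open symbols are not well above background. The transfected Per2m/m array is the lowest for Col1a1, Col3a1, Col5a1, Col4a1, Col4a2 and Col12a1 and the highest for Col4a6 and Col18a1.

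Basement membrane chains had Per2m/m responses between −9.44 and 4.39, the widest range of the 4 classes. The genes of type IV chains lie head to head in pairs, and the promoters below, from RefSeq on GRCm38.p6, show how close such pairs start. Each window covers 250 bases before and 50 after the start, given 5′ to 3′ on the gene's own strand. Capitals mark the letters CCAAT, a box bound by NF-Y, and GGGCGG, a GC box bound by the Sp factors, on either strand.
Col4a1: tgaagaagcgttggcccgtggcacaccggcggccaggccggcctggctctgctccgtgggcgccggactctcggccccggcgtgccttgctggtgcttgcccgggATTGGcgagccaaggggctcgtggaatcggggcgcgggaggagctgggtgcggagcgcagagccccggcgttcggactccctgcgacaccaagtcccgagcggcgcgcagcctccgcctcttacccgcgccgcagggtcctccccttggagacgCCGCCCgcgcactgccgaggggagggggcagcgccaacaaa
Col4a2: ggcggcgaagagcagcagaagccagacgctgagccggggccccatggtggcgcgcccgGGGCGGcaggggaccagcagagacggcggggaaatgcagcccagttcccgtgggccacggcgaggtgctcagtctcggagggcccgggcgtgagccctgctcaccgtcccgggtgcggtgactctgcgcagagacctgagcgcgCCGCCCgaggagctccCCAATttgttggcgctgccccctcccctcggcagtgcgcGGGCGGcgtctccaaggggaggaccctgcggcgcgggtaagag
Col4a5: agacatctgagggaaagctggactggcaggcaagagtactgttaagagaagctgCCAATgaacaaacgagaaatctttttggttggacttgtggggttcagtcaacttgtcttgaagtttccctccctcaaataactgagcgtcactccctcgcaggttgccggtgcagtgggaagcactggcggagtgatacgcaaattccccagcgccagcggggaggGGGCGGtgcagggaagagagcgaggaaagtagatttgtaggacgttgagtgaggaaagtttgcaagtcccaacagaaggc
Col4a6: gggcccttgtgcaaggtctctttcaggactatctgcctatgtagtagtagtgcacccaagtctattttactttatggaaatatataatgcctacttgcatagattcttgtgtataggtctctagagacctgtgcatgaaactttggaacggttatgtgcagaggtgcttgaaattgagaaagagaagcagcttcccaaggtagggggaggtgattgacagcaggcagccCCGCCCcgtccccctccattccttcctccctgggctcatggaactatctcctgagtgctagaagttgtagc
The Col4a1 window is chr8:11312777-11313076 on the minus strand and the Col4a2 window chr8:11312555-11312854 on the plus strand. Their starts, at 11312826 and 11312805, leave 22 bases shared by both transcripts, and the windows overlap by 78 bases. The Col4a5 window is chrX:141475169-141475468 on the plus strand and the Col4a6 window chrX:141474027-141474326 on the minus strand, with starts 1343 bases apart. GC content is 74.0% for Col4a1 and 73.7% for Col4a2, 52.7% for Col4a5 and 48.3% for Col4a6, and 52.7% is also the median of all 32851 windows. No base in these windows belongs to more than 1 of the motifs.

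Of the 37 genes, 30 had a promoter window in the RefSeq table, in 33 windows. The letters GGGCGG occurred in 22 of the 33 (66.7%), against 35.7% of all windows. CCAAT occurred in 13 (39.4%, against 37.4%) and TATAAA in 4 (12.1%, against 13.6%), all on either strand. CACGTG, the E-box letters that CLOCK and its partner bind, occurred in 0, against 7.15% of all windows. A match is a description of these letters in this window only.

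Col4a1, read at chromosome 8, 11199009 to 11199068, had levels of −4.01 in transfected and 5.43 in mock Per2m/m cells, 2.83 in transfected and 3.24 in mock Clk/Clk cells, and 3.95 in transfected and 5.34 in mock wild type cells. Col4a2, read at chromosome 8, 11448840 to 11448899, had levels of −2.97 in transfected and 5.41 in mock Per2m/m cells, 3.84 in transfected and 3.73 in mock Clk/Clk cells, and 3.84 in transfected and 5.36 in mock wild type cells. These chains form the main network of nearly all basement membranes, and each had its lowest level on the transfected Per2m/m array. Transfected Per2m/m cells were 696-fold lower for Col4a1 and 335-fold lower for Col4a2, Clk/Clk cells 1.33-fold lower and 1.08-fold higher, and wild type cells 2.61-fold lower and 2.87-fold lower. The responses of this pair differed by 1.06 in Per2m/m, 0.53 in Clk/Clk and 0.14 in wild type cells.

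The X-linked pair differed more. Col4a5 had levels of 2.26 in transfected and 2.81 in mock Per2m/m cells, 1.37 in transfected and 1.92 in mock Clk/Clk cells, and 2.05 in transfected and 3.38 in mock wild type cells. It was 1.46-fold lower, 1.47-fold lower and 2.52-fold lower in transfected Per2m/m, Clk/Clk and wild type cells. Col4a6, read at chromosome X, 137599990 to 137600049, had levels of 3.13 in transfected and −1.27 in mock Per2m/m cells, −2.17 in transfected and 0.25 in mock Clk/Clk cells, and −2.25 in transfected and −0.89 in mock wild type cells. It was 21-fold higher in Per2m/m cells, 5.36-fold lower in Clk/Clk and 2.57-fold lower in wild type cells, so its direction opposed that of Col4a5 in Per2m/m cells, with a gap of 4.94. A dimmer Col4a6 probe, at position 5102 of the transcript in place of 6544 and well above background on all 6 arrays, gave 1.81-fold higher in Per2m/m, 1.09-fold lower in Clk/Clk and 1.38-fold higher in wild type cells. None of these is 2-fold, so the Col4a6 values rest on 1 probe.

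Col4a3 and Col4a4 build the networks of kidney and lung with Col4a5. Col4a3 had levels of −3.94 in transfected and −4.46 in mock Per2m/m cells, a dim −6.76 in transfected and a dim −6.93 in mock Clk/Clk cells, and a dim −7.77 in transfected and a dim −7.56 in mock wild type cells. It was well above background on both Per2m/m arrays alone, at least 2.46-fold higher than wild type in mock and at least 2.89-fold higher in transfected cells. Col4a4 had levels of a dim −4.53 in transfected and −1.82 in mock Per2m/m cells, −3.83 in transfected and −3.30 in mock Clk/Clk cells, and −2.37 in transfected and −1.71 in mock wild type cells. This gene was at least 6.55-fold lower in Per2m/m, 1.44-fold lower in Clk/Clk and 1.57-fold lower in wild type cells. A dimmer Col4a4 probe, well above background on all 6 arrays, gave 3.43-fold lower in Per2m/m, 1.26-fold higher in Clk/Clk and 1.58-fold lower in wild type cells. Between mock cultures the probes disagreed, the shown one being 1.08-fold lower in Per2m/m and 3.02-fold lower in Clk/Clk than in wild type cells and the dimmer one 2.73-fold and 1.25-fold higher. Of the class, 3 of the 6 basement membrane genes were lower and 1 higher in Per2m/m cells (median −1.63), against 20.6% and 18.6% of all genes. Clk/Clk cells had 1 lower and 0 higher (−0.47), against 4.2% and 3.72%. Wild type cells had 4 lower and 0 higher (−1.35), against 12.1% and 7.4%.

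Among the FACITs, Col12a1, which decorates type I fibrils, stood apart. Read at chromosome 9, 79446895 to 79446954, it had levels of −4.06 in transfected and 4.15 in mock Per2m/m cells, 4.47 in transfected and 4.54 in mock Clk/Clk cells, and 1.95 in transfected and 4.23 in mock wild type cells. It was 297-fold lower in Per2m/m, 1.05-fold lower in Clk/Clk and 4.87-fold lower in wild type cells, with the 5 other arrays at 1.95 or above. A dimmer Col12a1 probe was well above background on the transfected Clk/Clk array alone and gives no fold in Per2m/m or wild type cells. Col20a1 had levels of −1.48 in transfected and −3.14 in mock Per2m/m cells, −1.94 in transfected and −1.89 in mock Clk/Clk cells, and −2.81 in transfected and −1.52 in mock wild type cells. It was 3.16-fold higher in Per2m/m, 1.03-fold lower in Clk/Clk and 2.45-fold lower in wild type cells, and its dimmer probe had the same directions, at least 9.1-fold higher in Per2m/m and 2.82-fold lower in wild type cells. Col22a1, known from muscle-tendon junctions, had levels of −0.85 in transfected and −4.03 in mock Per2m/m cells, a dim −5.01 in transfected and a dim −5.50 in mock Clk/Clk cells, and −3.30 in transfected and −4.31 in mock wild type cells. It was 9.09-fold higher in Per2m/m and 2.02-fold higher in wild type cells, with no fold in Clk/Clk cells. Its dimmer probe was at least 3.49-fold higher for Per2m/m cells and at least 1.4-fold lower in wild type cells, so the probes disagreed in wild type cells.

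The other 4 FACITs had no 2-fold response in any genotype by their brightest probes. They were Col9a1 and Col9a2, chains of the type IX collagen of cartilage, and Col14a1 and Col16a1. Col16a1 spanned 0.56 over the 6 arrays, between 5.37 and 5.93, the narrowest of all 37, and Col9a2 spanned 0.92. Col9a1 spanned 0.76, but it was well above background on the 2 wild type arrays alone. Its span is therefore no measured size, and it gives no fold in Per2m/m or Clk/Clk cells. Col14a1 spanned 1.53, and its brightest probe was 1.12-fold higher in Per2m/m, 1.45-fold lower in Clk/Clk and 1.7-fold lower in wild type cells. A dimmer Col14a1 probe gave 2.07-fold higher in Per2m/m, at least 1.63-fold lower in Clk/Clk and at least 9.43-fold lower in wild type cells. The dimmest Col16a1 probe also differed, being 3.76-fold higher in wild type cells. As a class, 1 of 7 FACITs was lower and 2 higher in Per2m/m cells (median 0.76), against 20.6% and 18.6% of all genes. This median is the value of Col9a1, dim on both Per2m/m arrays, so it is no measured size. The counts were 0 in Clk/Clk cells (−0.05), against 4.2% and 3.72%. In wild type cells 2 were lower and 1 higher (−0.27), against 12.1% and 7.4%. The last 2 medians turned sign over the scalings and background corrections, at up to 0.02 and 0.05.

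Short-chain collagens form hexagonal networks. Among them Col8a1, found under endothelia and in the cornea, had levels of −2.57 in transfected and 2.77 in mock Per2m/m cells, 2.11 in transfected and 1.05 in mock Clk/Clk cells, and 0.25 in transfected and 2.80 in mock wild type cells. It was 40.7-fold lower in Per2m/m and 5.82-fold lower in wild type cells, and 2.08-fold higher in Clk/Clk cells. Its partner Col8a2 had levels of a dim −5.60 in transfected and −2.80 in mock Per2m/m cells, −0.63 in transfected and −1.18 in mock Clk/Clk cells, and −3.72 in transfected and −1.82 in mock wild type cells. It was at least 3.45-fold lower in Per2m/m, 1.46-fold higher in Clk/Clk and 3.72-fold lower in wild type cells. A dimmer Col8a2 probe gave at least 1.36-fold lower in Per2m/m and 1.18-fold higher in wild type cells.

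Col7a1, the anchoring fibril that ties the skin's basement membrane to the dermis, was probed at chromosome 9, 108886861 to 108886920. Col7a1 levels were 2.60 in transfected and 6.01 in mock Per2m/m cells, 2.95 in transfected and 1.65 in mock Clk/Clk cells, and 5.90 in transfected and 7.03 in mock wild type cells. It was 10.6-fold lower in Per2m/m and 2.2-fold lower in wild type cells, and 2.45-fold higher in Clk/Clk cells, where both arrays were below both wild type arrays. Col18a1, a basement membrane collagen with heparan sulphate chains whose end fragment is endostatin, was probed at chromosome 10, 76515790 to 76515849. Col18a1 levels were 3.68 in transfected and 1.27 in mock Per2m/m cells, 1.48 in transfected and 0.33 in mock Clk/Clk cells, and 2.10 in transfected and 1.5 in mock wild type cells. It was 5.31-fold higher in Per2m/m, 2.21-fold higher in Clk/Clk and 1.52-fold higher in wild type cells. Its dimmer probe gave 2.31-fold, 2.05-fold and 1.61-fold higher in the same cells, so both probes were higher in each genotype. It was 1 of 4 genes with a response above 0 in all 3, with Col6a2, Col17a1 and Col22a1, of which Col17a1 turned sign in wild type cells under another scaling and Col22a1 was dim in Clk/Clk cells. In 11 genes the response was below 0 in all 3, Col1a1 turning sign in wild type cells under another scaling.

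Type VI collagen forms beaded filaments around cells from Col6a1, Col6a2 and Col6a3 or a relative of Col6a3. Col6a1 had levels of 4.50 in transfected and 3.99 in mock Per2m/m cells, 5.89 in transfected and 6.01 in mock Clk/Clk cells, and 5.60 in transfected and 5.01 in mock wild type cells. Col6a2 had levels of 1.12 in transfected and 0.34 in mock Per2m/m cells, 2.56 in transfected and 2.51 in mock Clk/Clk cells, and 2.50 in transfected and 1.85 in mock wild type cells. Col6a3 had levels of 5.03 in transfected and 5.83 in mock Per2m/m cells, 3.56 in transfected and 3.07 in mock Clk/Clk cells, and 6.13 in transfected and 6.42 in mock wild type cells. None of the 3 had a 2-fold response in any genotype, and the largest was −0.81 for Col6a3 in Per2m/m cells. The relatives of Col6a3 were well above background on few arrays. Col6a6 had levels of a dim −6.50 in transfected and −2.84 in mock Per2m/m cells, a dim −6.24 in transfected and a dim −6.46 in mock Clk/Clk cells, and a dim −7.37 in transfected and a dim −7.10 in mock wild type cells, and only the mock Per2m/m array gave signal well above background, at least 3.36-fold lower for transfected Per2m/m cells. Col6a4 had levels of −3.68 in transfected and a dim −5.64 in mock Per2m/m cells, a dim −4.89 in transfected and a dim −4.83 in mock Clk/Clk cells, and a dim −6.45 in transfected and a dim −5.20 in mock wild type cells, and was well above background on the transfected Per2m/m array alone, at least 2.47-fold higher.

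Col17a1, Col23a1 and Col25a1 span the cell membrane. Col17a1, a hemidesmosome protein of epithelia, had levels of −2.36 in transfected and a dim −5.36 in mock Per2m/m cells, −4.12 in transfected and a dim −4.53 in mock Clk/Clk cells, and −3.87 in transfected and −4.29 in mock wild type cells. Its signal was at least 6.15-fold higher in Per2m/m, at least 1.33-fold higher in Clk/Clk and 1.35-fold higher in wild type cells. Col23a1 had levels of a dim −5.56 in transfected and a dim −5.17 in mock Per2m/m cells, a dim −4.76 in transfected and a dim −5.29 in mock Clk/Clk cells, and a dim −5.44 in transfected and −4.20 in mock wild type cells, and Col25a1 levels of a dim −5.35 in transfected and a dim −5.42 in mock Per2m/m cells, a dim −4.23 in transfected and a dim −4.97 in mock Clk/Clk cells, and a dim −5.60 in transfected and −4.90 in mock wild type cells. Both were well above background on the mock wild type array alone, and transfected wild type cells were at least 2.38-fold lower for Col23a1 and at least 1.48-fold lower for Col25a1. Of the 13 other collagens, 5 were lower and 3 higher in Per2m/m cells (median −0.38), against 20.6% and 18.6% of all genes. This median is the value of Col23a1, dim on both Per2m/m arrays, so it is no measured size. Clk/Clk cells had 0 lower and 3 higher (0.49), against 4.2% and 3.72%. Wild type cells had 4 lower and 0 higher (−0.28), against 12.1% and 7.4%. The Per2m/m and wild type medians turned sign over the scalings and background corrections, at up to 0.20 and 0.03.

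Markers of other cells differed with transfection as well, and their part in the collagen responses was not tested. Over all genes, 20.6% were lower and 18.6% higher in Per2m/m cells and 12.1% and 7.4% in wild type cells. The shares in Clk/Clk cells were 4.2% and 3.72%. Of 15 macrophage markers, 8 were well above background on the transfected and 15 on the mock Per2m/m array, 8 and 9 on the Clk/Clk arrays, and 7 and 13 on the wild type arrays. Their summed signal, in multiples of the 75th percentile, was 18.0 on the transfected and 56.8 on the mock Per2m/m array, 56.7 and 61.2 on the Clk/Clk arrays, and 23.9 and 47.2 on the wild type arrays. Most of each sum was Itgam, with levels of 5.65 in transfected and 5.77 in mock Clk/Clk cells, so the sums follow that gene more than the list. On the mock Clk/Clk array Lyz2, Tyrobp, Adgre1, C1qa, C1qc and Laptm5 were not well above background. Of these 15, 13 were at least 2-fold lower for transfected Per2m/m cells, 0 in Clk/Clk and 9 in wild type cells, and 1 was higher, in wild type cells. The bounds for Cd53 and Laptm5 in Per2m/m cells were 1.47-fold and 1.24-fold, which leaves 11 of 15 there. Tyrobp, C1qa and C1qc, macrophage signalling and complement genes, were not well above background on any transfected array, and Lyz2, a lysozyme, was 5.29-fold lower in Per2m/m and at least 26-fold lower in wild type cells. Of 10 contractile markers of myofibroblasts, 9 were lower in transfected Per2m/m, 0 in Clk/Clk and 3 in wild type cells, with summed signals of 37.1 and 2448, 1603 and 1537, and 1734 and 2245 on the transfected and mock arrays of each. Cnn1 (calponin), Myl9 (myosin light chain) and Actg2 (smooth muscle actin) were 1942-fold lower, 938-fold lower and 825-fold lower in Per2m/m cells and under 2-fold in Clk/Clk and wild type cells, and Myh11, smooth muscle myosin, was at least 34.5-fold lower there and at least 63.3-fold lower in wild type cells.

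Of 12 fibroblast markers, 6 were lower in transfected Per2m/m cells (5 with dim levels at the bound), against 20.6% of all genes. In Clk/Clk cells 1 was higher, against 3.72%, and in wild type cells 5 were lower and 1 higher, against 12.1% and 7.4%. Their summed signal was 1465 on the transfected and 1276 on the mock Per2m/m array, 1022 and 1136 on the Clk/Clk arrays, and 987 and 1239 on the wild type arrays. Thy1, a surface protein of fibroblasts, was 218-fold lower in Per2m/m and 10.1-fold lower in wild type cells. Dcn and Lum, small proteoglycans that bind collagen fibrils, were 7.58-fold lower and at least 1.4-fold lower for Per2m/m cells and 58.2-fold lower and at least 22.8-fold lower in wild type cells, and Fbn1, fibrillin, was 6.37-fold lower and 2.7-fold lower. Of 11 measured epithelial markers, 2 were lower and 4 higher in transfected Per2m/m cells, against 20.6% and 18.6% of all genes. Their summed signal was 6.89 on the transfected array, mostly Krt14, and 4.95 on the mock array, mostly Krt19. In each other genotype 1 was lower, against 4.2% of all genes in Clk/Clk and 12.1% in wild type cells. The keratins were 104-fold higher for Krt14, at least 5.23-fold higher for Krt8 and at least 88.1-fold lower for Krt19 in Per2m/m cells, and Grhl2, an epithelial transcription factor, was at least 3.24-fold higher. The summed epithelial signal was 1.2 on the transfected and 1.41 on the mock Clk/Clk array, and 0.888 and 2.29 on the wild type arrays. Of 6 measured endothelial markers, 3 were lower in Per2m/m (20.6% of all genes), 1 higher in Clk/Clk (3.72%) and 1 lower in wild type cells (12.1%). The summed signals were 10.5 and 9.39, 6.27 and 7.93, and 7.19 and 8.22 on the transfected and mock arrays of each. Most of each sum was Kdr, which was under 2-fold in every genotype. Emcn (endomucin), Cldn5 (claudin 5) and Esam, proteins of the endothelial surface and junctions, were at least 19.8-fold lower, at least 5.23-fold lower and at least 2-fold lower for Per2m/m cells. Tek, an endothelial receptor, was at least 1.59-fold higher in Clk/Clk cells. The summed cartilage and bone signal was 7.78 and 2.11 on the transfected and mock Per2m/m arrays, 1.26 and 0.966 on the Clk/Clk arrays, and 2.41 and 1.1 on the wild type arrays. Most of this signal on the transfected Per2m/m and transfected wild type arrays was Sox9.

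The genes that act on collagen chains were read as lists. Of 14 measured genes of prolyl and lysyl modification, 7 were at least 2-fold lower in transfected Per2m/m, 0 in Clk/Clk and 2 in wild type cells, and none was higher (median response −0.89, 0.00 and −0.60). Over all genes, 20.6% were lower and 18.6% higher in Per2m/m, 4.2% and 3.72% in Clk/Clk, and 12.1% and 7.4% in wild type cells. Crtap, part of a collagen prolyl 3-hydroxylation complex, had levels of −2.04 in transfected and 5.65 in mock Per2m/m cells, 4.97 in transfected and 4.92 in mock Clk/Clk cells, and 5.18 in transfected and 5.73 in mock wild type cells. It was 207-fold lower in Per2m/m and 1.47-fold lower in wild type cells, and its lowest level was on the transfected Per2m/m array. P3h3 and P4ha3, of the prolyl hydroxylase families, were 50.5-fold lower and 19-fold lower in Per2m/m cells and 1.75-fold lower and 2.34-fold lower in wild type cells. P3h2 was at least 2.02-fold lower in Per2m/m and 2.69-fold lower in wild type cells.

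Of 11 genes of collagen folding and export, 5 were lower and 1 higher in Per2m/m, 0 in Clk/Clk and 1 lower in wild type cells (median −0.61, −0.23 and −0.33). The shares over all genes were 20.6% lower and 18.6% higher in Per2m/m, 4.2% and 3.72% in Clk/Clk, 12.1% and 7.4% in wild type cells. The chaperones Fkbp10 and Fkbp14 were 3.51-fold lower and 7.39-fold lower in Per2m/m cells and 1.6-fold lower and 2.5-fold lower in wild type cells. Creb3l1, a transcription factor that activates Col1a1 in bone, was 36.4-fold lower in Per2m/m and 1.01-fold lower in wild type cells. Sec23a, of the COPII coat that carries procollagen out of the endoplasmic reticulum, was 5.23-fold lower and 1.44-fold lower.

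Of 11 measured genes of propeptide cleavage and cross-linking, 9 were lower and 1 higher in Per2m/m, 2 and 2 in Clk/Clk, and 5 and 0 in wild type cells (median −2.48, −0.26 and −0.73). Among all genes, 20.6% were lower and 18.6% higher in Per2m/m, 4.2% and 3.72% in Clk/Clk, and 12.1% and 7.4% in wild type cells. Loxl2, a lysyl oxidase that cross-links type IV collagen, had levels of a dim −5.04 in transfected and 6.16 in mock Per2m/m cells, 3.70 in transfected and 5.06 in mock Clk/Clk cells, and 3.42 in transfected and 6.65 in mock wild type cells. This gene was at least 1717-fold lower, 2.56-fold lower and 9.44-fold lower in Per2m/m, Clk/Clk and wild type cells. Tll1, a propeptide-cleaving protease, was at least 180-fold lower in Per2m/m and 3.35-fold lower in wild type cells, and 4.43-fold higher in Clk/Clk cells. The enhancer of that cleavage, Pcolce2, was at least 90.8-fold lower in Per2m/m and 3.12-fold lower in wild type cells. Loxl3, another lysyl oxidase, was 20.5-fold lower in Per2m/m, 2.8-fold higher in Clk/Clk and 1.65-fold lower in wild type cells.

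Of 9 measured collagen receptors, 4 were lower and 1 higher in Per2m/m, 1 and 0 in Clk/Clk, and 4 and 0 in wild type cells (median −0.77, 0.12 and −0.73). All genes had shares of 20.6% lower and 18.6% higher in Per2m/m, 4.2% and 3.72% in Clk/Clk, 12.1% and 7.4% in wild type cells. Itga11, the integrin chain by which fibroblasts hold fibrillar collagen, had levels of −0.48 in transfected and 5.60 in mock Per2m/m cells, 2.13 in transfected and 3.26 in mock Clk/Clk cells, and 3.95 in transfected and 6.50 in mock wild type cells. It was lower in each genotype, 67.6-fold lower in Per2m/m, 2.19-fold lower in Clk/Clk and 5.84-fold lower in wild type cells. Its partner Itgb1 was 4.99-fold lower in Per2m/m, 1.57-fold higher in Clk/Clk and 2.25-fold lower in wild type cells. Mrc2, an uptake receptor for collagen fragments, was 11.2-fold lower in Per2m/m and 1.12-fold lower in wild type cells, and Itga2, the chain of an integrin for type I collagen, was at least 2.77-fold lower in Per2m/m and 1.52-fold lower in wild type cells.

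The genotypes also differed before transfection. Both comparisons with wild type share the mock wild type array, which held the highest level of 14 of the 37 genes and the lowest of 0. In mock Per2m/m cells 7 of 37 collagen genes were at least 2-fold lower than in mock wild type cells, where 4.67% of all genes were, and 5 were higher, where 4.37% were (median −0.38). The bound for Col17a1 among the 7 was 1.61-fold, which leaves 6. Of the 5 higher genes, Col4a3 and Col6a6 passed the filter through Per2m/m arrays alone. Among the 22 genes well above background everywhere, 6 were lower and 0 higher in mock Per2m/m cells. Of the 12868 such genes, 1.95% were lower and 1.43% higher. In mock Clk/Clk cells 17 were lower, against 10.4% of all genes, and 3 were higher, against 10.8% (median −0.87, and −1.20 to −0.30 over the scalings and background corrections). The bounds for Col22a1 and Col23a1 among the 17 were 1.24-fold and 1.34-fold, which leaves 15, and both signs turned under another scaling. Slide position followed genotype in part, with both Per2m/m arrays in another row of the slide than the others, so row and the Per2m/m genotype cannot be told apart.

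**Figure D4:**
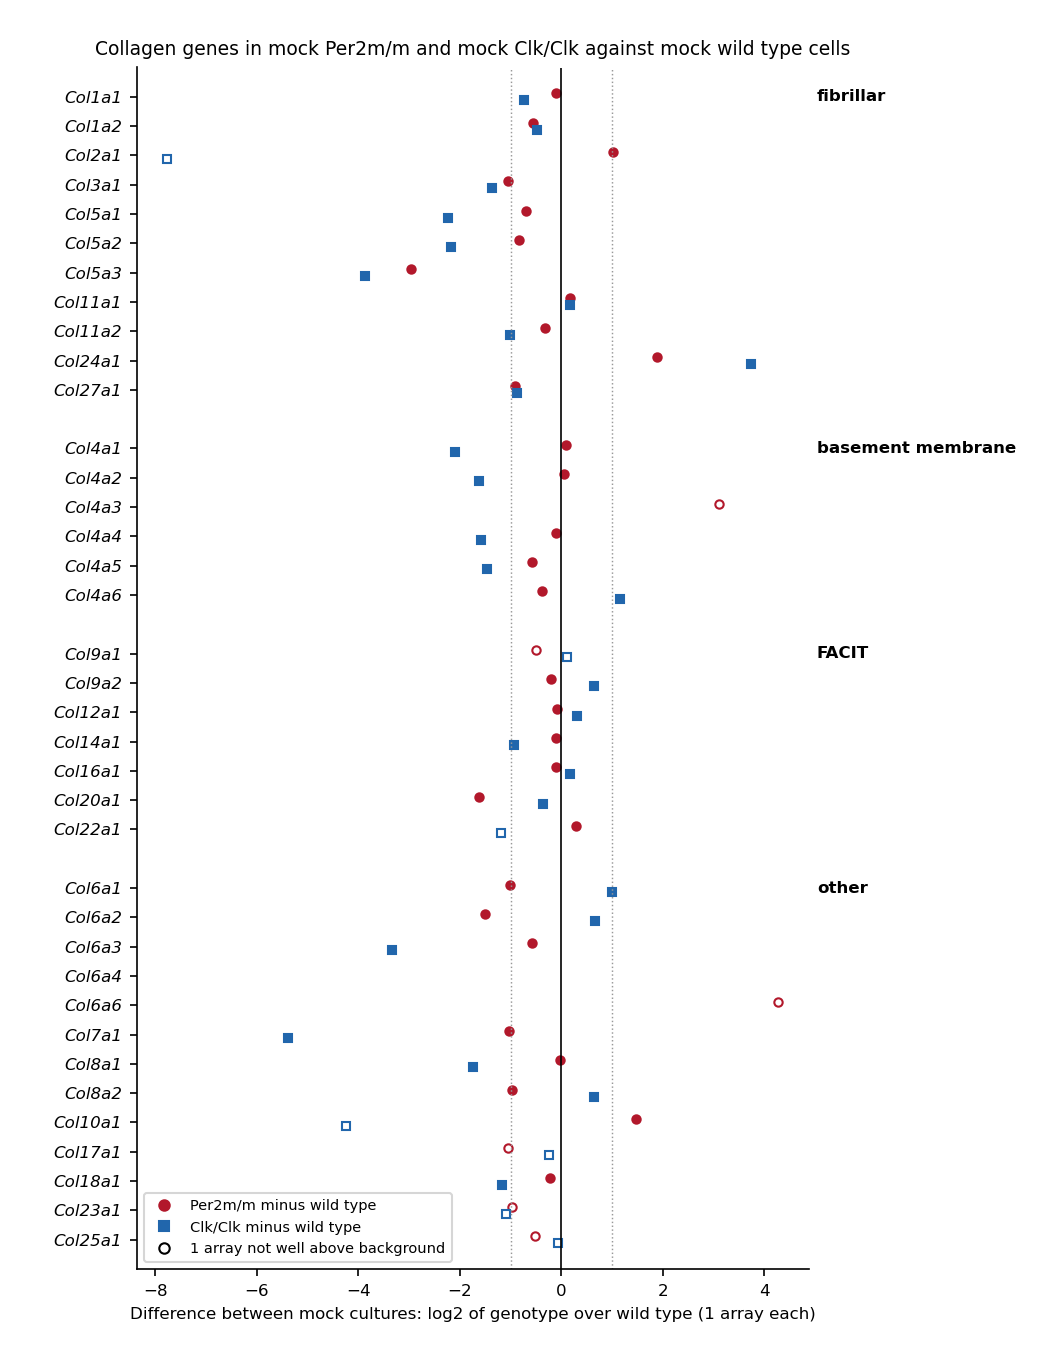
Difference of each collagen gene from mock wild type cells (log2) in mock Per2m/m (red circles) and mock Clk/Clk cells (blue squares), by class, 1 array each. Open symbols have 1 array not well above background. Blue squares of Col7a1, Col5a3 and Col6a3 lie at −5.38, −3.87 and −3.34, that of Col24a1 at 3.74.

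Col7a1 was 41.6-fold lower in mock Clk/Clk than in mock wild type cells, and 2.04-fold lower in mock Per2m/m cells. Col6a3 was 10.2-fold lower in mock Clk/Clk cells, while its partners Col6a1 and Col6a2 were 2.01-fold higher and 1.58-fold higher, a gap of up to 4.35 among the 3 chains. In mock Per2m/m cells the same chains were 2.03-fold lower for Col6a1, 2.85-fold lower for Col6a2 and 1.5-fold lower for Col6a3. Col5a3 was lower in both, 7.8-fold lower in mock Per2m/m and 14.6-fold lower in mock Clk/Clk cells, and so was Col3a1, at 2.09-fold lower and 2.58-fold lower. Col24a1 was higher in both, 3.71-fold higher in mock Per2m/m and 13.3-fold higher in mock Clk/Clk cells. Col5a1, Col5a2, Col4a1 and Col4a2 were 4.73-fold lower, 4.55-fold lower, 4.29-fold lower and 3.1-fold lower in mock Clk/Clk cells, and each was under 2-fold in mock Per2m/m cells. Col2a1 was 2.02-fold higher in mock Per2m/m and at least 52-fold lower in mock Clk/Clk cells, and for Col10a1 the mock Per2m/m level was 2.77-fold higher and the mock Clk/Clk level at least 4.66-fold lower.

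In mock Clk/Clk cells 4 of 14 modification genes, 2 of 11 folding and export genes, 6 of 11 propeptide and cross-linking genes and 5 of 9 receptors were lower than in mock wild type cells, and none was higher. Over all genes 10.4% were lower and 10.8% higher there. The bound for Itga2 among the 5 was 1.19-fold, which leaves 4. Itga11 was 9.46-fold lower and Pcolce2 13.3-fold lower there. In mock Per2m/m cells 0, 0, 1 and 1 were lower in the same lists, and 1 receptor, Itga2, was higher, against 4.67% and 4.37% of all genes. Of 12 fibroblast markers, 2 were lower and 0 higher in mock Per2m/m cells, against 4.67% and 4.37% of all genes. In mock Clk/Clk cells 2 were lower and 5 higher, against 10.4% and 10.8%. The fibroblast proteoglycan Dcn was 5.24-fold lower in mock Per2m/m and 9.28-fold higher in mock Clk/Clk cells, while Fbn1 was 5.18-fold lower in mock Clk/Clk cells. Macrophage markers were at least 2-fold higher than in mock wild type cells for 10 of 15 in mock Per2m/m cells, against 4.37% of all genes. In mock Clk/Clk cells 6 of 15 were lower and 2 higher, against 10.4% and 10.8%.

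Between transfected cultures, which share the transfected wild type array, 19 of 37 collagen genes were lower in Per2m/m than in wild type cells, where 16.2% of all genes were, and 7 were higher, where 14.7% were. The bound for Col8a2 among the 19 was 1.83-fold, which leaves 18. Of the 7 higher genes, Col4a3 and Col6a4 passed the filter through Per2m/m arrays alone. Among the 22 genes well above background everywhere, 13 were lower and 3 higher in transfected Per2m/m cells. Of the 12868 such genes, 11% were lower and 13.4% higher. In transfected Clk/Clk cells 12 were lower, against 10.9%, and 4 were higher, against 14.3%. Col8a1 was 3.63-fold higher in transfected and 3.34-fold lower in mock Clk/Clk cells than in wild type cells. Col12a1 was 5.74-fold higher and Col8a2 8.49-fold higher in transfected Clk/Clk than in transfected wild type cells. For Col8a2 the dimmer probe gave no fold in this comparison, so its value rests on 1 probe. Col7a1 and Col6a3 were 7.74-fold lower and 5.94-fold lower in transfected Clk/Clk than in transfected wild type cells, and Col24a1 at least 20-fold higher.

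The test across genotypes found no collagen gene past the threshold. In an additive limma model of genotype and transfection over the 6 arrays, adjusted over all 17684 genes, 0 genes passed an adjusted p of 0.05 for any term (0% of all genes), and 5 of 37 collagen genes had an unadjusted p under 0.05 for transfection, against 4.64% of all genes. For transfection, the lowest adjusted p of a collagen gene was 0.695 (limma). Lower by this measure were Col27a1 at −1.62 ± 0.33 (log2 ± SE, unadjusted p = 0.00853), Col3a1 at −2.00 ± 0.65, Col5a1 at −1.54 ± 0.46 and Col5a2 at −1.90 ± 0.62, and Col18a1 was higher at 1.39 ± 0.46. The Col27a1 value rests in part on the levels of 2 arrays where it was not well above background. Without the transfected Per2m/m array, Col27a1 stood at −1.46 ± 0.38, Col3a1 at −1.21 ± 0.38, Col5a2 at −1.13 ± 0.34, Col5a1 at −1.18 ± 0.48 and Col18a1 at 0.87 ± 0.32, of which the first 3 kept an unadjusted p under 0.05 (limma, lowest adjusted p 0.935). Without it Col2a1 stood at 1.51 ± 0.33 and Col4a6 at −1.89 ± 0.41, against −1.31 and 0.20 with all arrays, so both signs turned. The Col2a1 value rests in part on 2 dim Clk/Clk levels and is no measured size. For Col4a6, the dimmer probe was 1.09-fold lower in Clk/Clk and 1.38-fold higher in wild type cells. The median transfection coefficient of the 37 was −0.70 with all arrays, against 0.02 for all genes, and −0.57 without the transfected Per2m/m array, and 24 and 26 of the 37 lay below 0.

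For the genotype terms, 5 collagen genes had an unadjusted p under 0.05 for Per2m/m, against 2.3% of all genes, and 6 for Clk/Clk, against 9.63%. Col4a3 was higher in Per2m/m cells at 3.47 ± 0.35 (limma, unadjusted p = 0.00072, adjusted p = 0.933), a value that rests on 4 arrays not well above background. This gene passed the filter through the Per2m/m arrays alone, so its p-value is no support for a difference. Its bounds were at least 2.46-fold higher in mock and at least 2.89-fold higher in transfected cells. The other 4 of the 5 genes were lower, Col3a1, Col6a1, Col6a2 and Col27a1, at −2.48 to −1.06. For Clk/Clk, Col6a3 was lower at −2.96 ± 0.45 (limma, unadjusted p = 0.00312, adjusted p = 0.292) and Col24a1 higher at 5.07 ± 1.02 (adjusted p = 0.37), and Col2a1, Col4a5, Col7a1 and Col27a1 were lower, at −8.08, −1.07, −4.17 and −1.31. The Col2a1 value rests on 3 arrays where its signal was dim, both Clk/Clk arrays among them, and those of Col24a1 and Col27a1 on 2 each, so none is a measured size. With 1 array per group, the p-values do not measure the spread between cultures of a group. The residual of the model holds array noise and genotype-specific response together, so a response that differs between genotypes raises it. It rests on 2 residual degrees of freedom, and on 1 in the fit of 5 arrays without the transfected Per2m/m array.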

How the data were processed

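Total RNA from 6 cultures was labelled with Cy3 and hybridised to single-colour Agilent arrays of design 028005, 1 array per group. The deposited scanner output gives intensity on a linear scale, extracted with Feature Extraction 10.7.1.1 per the file headers, while the submitters' processing notes name 9.5.1.1. Probe coordinates are those of the deposited files (mm9). Of 55661 probes, a RefSeq accession gave 27297 their gene names, a symbol 3529 and a synonym 553 (GRCm38.p6, names only), while 1803 kept the name in the files and 22479 stayed unnamed. Control spots and 85 to 125 outlier spots per array were left out, of 59305 non-control spots, none saturated, and spots of a probe were averaged. The 75th percentile signal was 377 to 634. Precision is limited by how few arrays there are.

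Genes needed a probe well above background on at least 1 array, which left 17684 of 24045 named genes, each read by its brightest kept probe, and collagen genes were matched by the file's gene name, with 50 of 68 probes kept. Of the genes, 12868 were well above background on all 6 arrays. The additive model used limma 3.58.1 (R 4.3.3) (lmFit, eBayes, two-sided, Benjamini-Hochberg). It was also run on simulated data with the same spread for all genes and the same response in each genotype. That run differs from these data and does not show how well the model does here. Python 3.11.15, pandas 2.3.3, numpy 2.4.6 and matplotlib 3.10.9 were used for the rest. The authors' deposited table, also intensity on a linear scale with a median of 23.8 in each column, followed its own array with r of at least 0.998 and was an alternative. The sources used here do not say how it was normalized. A dim level was bounded by itself or, if higher, by the faintest probe that was well above background on its array. All 6 levels are printed for collagen genes with a 2-fold response and their partner chains, and levels of other genes only where given. Of each other list, the 4 genes with the largest mean absolute response are named, plus any gene at 2-fold the same way in all 3 genotypes. Further genes are named where they carry a summed signal, set the bound of a count or were dim. The members and lists were chosen with earlier results of these data known. Alternatives changed the scaling, normalization, background correction, source of values, filter, probe choice, floor, fold threshold, variance moderation and arrays.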

Additional observations from a re-analysis of the deposited data

Results flagged for a closer look

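For 5 collagen genes the response was at least 2-fold in opposite directions in different genotypes. The differences between genotypes were not tested, since each response rests on 1 transfected and 1 mock array. Col2a1 was lower in transfected Per2m/m and higher in transfected wild type cells, with responses 8.76 apart as measured (log2). Its level in transfected Per2m/m cells was dim, so this gap is not an exact size. For Col4a6, higher in Per2m/m and lower in Clk/Clk and wild type cells, the largest gap was 6.82, and a dimmer probe had no 2-fold response. Col8a1 was higher in Clk/Clk and lower in Per2m/m and wild type cells, by up to 6.40, and Col7a1 had the same directions, by up to 4.69. Col20a1 was higher in Per2m/m and lower in wild type cells, 2.95 apart, with both of its probes in the same directions. For Col7a1 and Col8a1 the opposite directions of Clk/Clk and wild type cells do not involve the transfected Per2m/m array, while for Col2a1, Col4a6 and Col20a1 they do. Median scaling took the wild type responses of Col7a1 (−1.14) and Col20a1 (−1.29) under 2-fold, without a change of sign. Col7a1 then opposed Clk/Clk cells at 2-fold in Per2m/m cells only, which involves the transfected Per2m/m array. Col20a1 then no longer belonged to the 5 genes.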

How the results depend on the processing

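The 0 collagen genes past an adjusted p of 0.05 for transfection (limma) stayed 0 under all 10 alternatives, with the lowest adjusted p between 0.628 and 0.935 and 5 to 7 genes at an unadjusted p under 0.05. The counts of lower genes in wild type cells and of higher genes in Clk/Clk cells stayed within 1.5 times the reported ones under 9 alternatives each. With only probes well above background on all 6 arrays, which leaves 23 genes, 11 were lower and 3 higher in Per2m/m cells and 0 higher in wild type cells. The count of higher genes in wild type cells was 1 with normexp and 1 with the mean of all kept probes, and 5 at 1.5-fold, where 6 were lower in Clk/Clk cells. The median response in Per2m/m cells was −0.53 with median scaling and with normexp, −1.07 with quantile normalization and with the authors' deposited table, and −0.38 with no filter on dim probes. In Clk/Clk cells it was 0.07 with no filter, with the mean of all kept probes and with dim values at the bound, against −0.04. In wild type cells it was −0.41 with median scaling, −0.58 with quantile normalization and with the deposited table, and −0.48 with normexp. The median coefficient for transfection was −0.50 with median scaling, −0.28 with normexp, −0.37 with no filter, −0.81 with the mean of all kept probes and −0.57 without the transfected Per2m/m array. The cause of these shifts was not tested. No paired analysis was possible because the labels give no replicate numbers and each group has 1 array, beyond the genotype term of the additive model, which already sets each transfected array against the mock array of its genotype. Weak signal limits the 15 genes that were not well above background on every array, since their folds there are bounds.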
